A study of Mus musculus with 6 samples.

Results

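The 32 mouse genes described here encode the enzymes that remove superoxide and peroxides, the thioredoxin and glutathione systems that keep those enzymes reduced, the steps that supply NADPH to both, and the control of the transcription factor NRF2 with a pair of its classic target genes. They were taken by gene symbol from 54838 genes in the count tables, and all 32 had enough counts to be tested. RNA sequencing measured them in neutrophils that flow cytometry had collected from corneas of mice, 24 h after these were infected with Pseudomonas aeruginosa of the laboratory strain PAO1. Both genotypes were infected, 3 libraries came from WT mice and 3 from mice labelled IL1a -/-, which lack the cytokine IL-1 alpha (Il1a-/- below), and no uninfected group was analysed here. Mouse strain, age and sex, the kind of Il1a allele and any pooling of corneas are not given in the labels. The comparison addresses how loss of IL-1 alpha bears on the expression of these genes in neutrophils at the site of infection.

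Neutrophils kill bacteria with superoxide, which their NADPH oxidase makes by passing electrons from NADPH to oxygen. Superoxide dismutases turn superoxide into hydrogen peroxide, and catalase, the glutathione peroxidases and the peroxiredoxins remove the peroxide. Peroxiredoxins are recharged mainly by thioredoxin and glutathione peroxidases by glutathione, and thioredoxin reductase and glutathione reductase draw the electrons for this from NADPH of the pentose phosphate pathway. NRF2, encoded by Nfe2l2, is held back by KEAP1, which marks it for degradation. Oxidants and electrophiles block KEAP1, and NRF2 then binds the antioxidant response element beside genes such as Nqo1, Gclm, Srxn1, Txnrd1 and Hmox1. The activity of NRF2 is therefore set largely at the level of the protein, which was not measured here.

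Promoters are shown for 4 textbook NRF2 targets that were picked, after their values were seen, for higher mean levels in Il1a-/- neutrophils. Prdx1 and Nqo1 had the smallest and the third smallest unadjusted p of the 32 genes, and Srxn1 and Gclm had smaller differences. Another such target, Txnrd1, whose promoter also held a match to the element below, had a log2 fold change in the other direction (-0.09). Promoter windows of 300 bases, from 250 before to 50 after the RefSeq transcription start (GRCm38.p6), were found for 28 of the 32 genes, and there was no entry for Gclc, Gsr, Hmox1 and Prdx6. Each stretch below runs 5′ to 3′ on the strand of the gene from 250 to 61 bases before the start. Capitals mark TGACNNNGC, the core of the antioxidant response element, or TGACTCA, a site of the AP-1 factors that the former can contain, on either strand.
Prdx1: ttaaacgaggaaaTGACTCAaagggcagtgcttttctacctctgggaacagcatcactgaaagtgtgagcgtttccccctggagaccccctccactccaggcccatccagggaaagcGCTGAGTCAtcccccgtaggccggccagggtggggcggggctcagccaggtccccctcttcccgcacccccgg
Srxn1: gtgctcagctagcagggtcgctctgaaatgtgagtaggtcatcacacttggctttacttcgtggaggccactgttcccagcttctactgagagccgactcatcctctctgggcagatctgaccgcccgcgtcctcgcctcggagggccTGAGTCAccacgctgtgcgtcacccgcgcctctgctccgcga
Gclm: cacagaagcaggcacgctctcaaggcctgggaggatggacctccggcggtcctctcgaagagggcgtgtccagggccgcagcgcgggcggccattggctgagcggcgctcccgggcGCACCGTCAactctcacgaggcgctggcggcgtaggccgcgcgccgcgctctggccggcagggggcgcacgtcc
Nqo1: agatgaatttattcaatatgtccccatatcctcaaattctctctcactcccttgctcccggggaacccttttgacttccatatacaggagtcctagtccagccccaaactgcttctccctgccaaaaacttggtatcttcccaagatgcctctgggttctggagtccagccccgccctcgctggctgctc
The Prdx1 stretch lies at chr4:116685349-116685538 on the plus strand, that of Srxn1 at chr2:152105274-152105463 on the plus strand, that of Gclm at chr3:122245307-122245496 on the plus strand, and that of Nqo1 at chr8:107403266-107403455 on the minus strand. In Prdx1 the element read TGACTCAGC on the opposite strand, 133 to 125 bases before the start, so that it also held an AP-1 site, and a further TGACTCA lay 237 to 231 bases before the start. In Gclm it read TGACGGTGC on the opposite strand, 134 to 126 bases before the start. Srxn1 had TGACTCA on the opposite strand 102 to 96 and 45 to 39 bases before the start, and its TGACNNNGC match lay outside the printed stretch, 29 to 37 bases after the start. The Nqo1 window held neither run of letters, which says only that they are not in this window. TGACNNNGC was found in the windows of 8 of the 28 genes (28.6%), namely G6pdx, Gclm, Nfe2l2, Pgd, Prdx1, Sod1, Srxn1 and Txnrd1, against 14.0% of all 27025 genes with a window. TGACTCA was found in 3 of the 28 (10.7%), namely Glrx, Prdx1 and Srxn1, against 5.95% of all genes. These matches describe sequence and are not binding sites measured in these cells.

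The libraries held 22855676 to 33626008 gene counts each. Levels are given as CPM, counts scaled to a common library size after TMM normalization. Levels of different genes of the 32 are compared with each other only per kb, of exon unless another length is named. Sums of CPM over several genes are not scaled by length and are compared between genotypes. Il1a was at 5116, 6195 and 8776 CPM in the WT libraries and at 2.89, 5.37 and 5.15 CPM in the Il1a-/- libraries, so each library carried the level of its label. Il1a-/- replicate 2 stood apart from the other 5 libraries on the first principal component of all genes, at 67.3 against -32.9 to 2.1. The 15 neutrophil markers summed to 54950 to 60024 CPM in WT and 51915 to 56056 CPM in Il1a-/- libraries. Of the 10 T and NK cell markers, Cd3e, Cd4, Cd8a, Nkg7, Ncr1 and Klrb1c were at 0 counts in every library. Cd3d had 28, 43 and 38 counts in WT and 15, 23 and 16 counts in Il1a-/- libraries. Trac had 5 to 18 counts per library, and Cd3g and Gzmb had 0 to 9. The 10 corneal epithelium markers, Tkt among them, summed to 38.6 to 156 CPM in WT and 49.3 to 126 CPM in Il1a-/- libraries. The 9 erythroid and platelet markers summed to 5.69 to 32.2 CPM in WT and 3.55 to 38.9 CPM in Il1a-/-. Replicates of a genotype differed by more than sampling noise. The labels number biological replicates without naming animals, so a p-value measures only how these libraries spread. The kit does not mark strand, and for 7 of the 32 genes (Prdx2, Prdx5, Txnip, Gss, G6pdx, Keap1 and Sqstm1) more than 10% of the exon length overlaps another gene, so their reads may be undercounted or shared. In bulk RNA, fewer cells of a type and less RNA per cell cannot be told apart.

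Most of the 32 genes were at similar levels in both genotypes, with 29 of them less than 2-fold apart in value. So were 11178 of all 11924 tested genes. The other 3 were Prdx1, Prdx4 and Nqo1, with means of 15.9, 0.80 and 2.37 CPM over the 6 libraries. None of the 32 genes passed the test (edgeR quasi-likelihood test, Benjamini-Hochberg adjusted p under 0.05 over 11924 genes), which called 0.101% of all tested genes (0.0755% higher and 0.0252% lower). DESeq2, which called 69 of all 11924 genes, called 1 of the 32, Prdx1. Limma-voom, which called 12 of all 11924 genes, called 0 of the 32. At an unadjusted p under 0.05, 3 of the 32 genes were higher in Il1a-/- neutrophils (Prdx1, Nqo1 and Hmox1) and 0 were lower, which is 9.38% beside 5.99% of all tested genes (3.44% higher and 2.55% lower). The groups did not overlap, meaning that every library of one genotype lay above every library of the other, for 4 of the 32 genes (12.5%), all higher in Il1a-/-, beside 11.6% of all tested genes (6.12% higher and 5.48% lower). The share of non-overlapping genes was thus close to the background. The median log2 fold change (Il1a-/- over WT) was 0.0036, with quartiles at -0.18 and 0.19, and that of all tested genes was 0.0045. Of the 32 genes, 17 had a log2 fold change above 0, beside 50.7% of all tested genes. For 24 genes the 95% interval of the fold change lay within 2-fold in either direction, among them 15 of the 16 genes that averaged 50 CPM or more. Over all 11924 tested genes it did so for 6187, among them 1829 of the 1851 that averaged 50 CPM or more. On counts simulated from these libraries, in which the changed genes averaged 5 CPM or more, the test called 7 of 50 genes changed 1.5-fold, 35 of 50 changed 2-fold and 50 of 50 changed 4-fold, so differences below 2-fold were often not detectable with 3 libraries per genotype. These rates do not cover the 8 of the 32 genes with a mean under 5 CPM, among them Nqo1, Prdx4 and Cat. The simulated counts held 200 changed genes, while the test called 12 genes in the measured counts. The Benjamini-Hochberg adjustment is stricter when fewer genes have small p-values, so recovery in the measured counts may be lower than these rates.

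**Figure D1:**
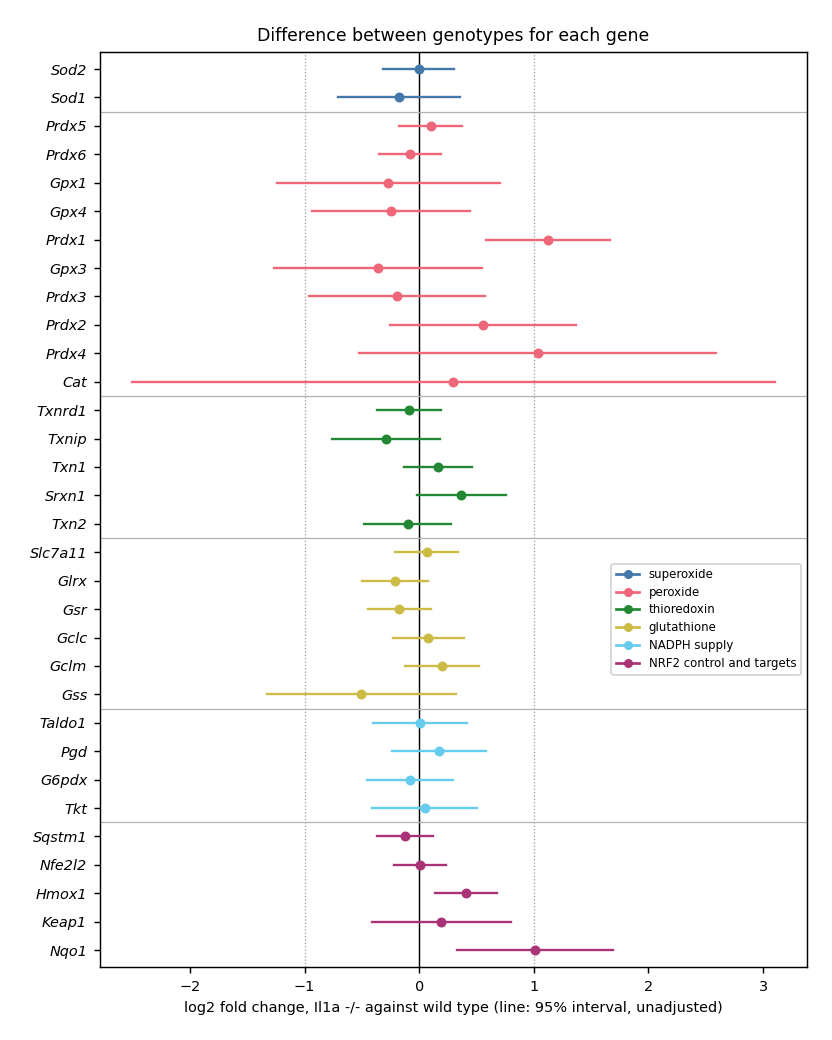
Fitted log2 fold change of each of the 32 genes, Il1a-/- over WT (points), with its unadjusted 95% interval (lines), coloured by functional arm and ordered by level within each arm. Dotted lines mark a 2-fold difference. Intervals of Prdx1, Nqo1 and Hmox1 lie above 0, and those of Cat and Prdx4, at under 1 CPM on average, are the widest.

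**Figure D2:**
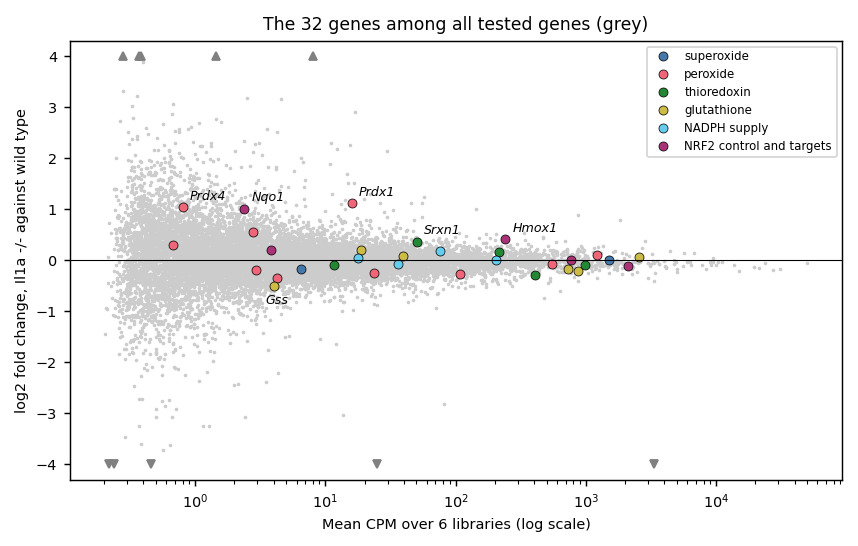
Log2 fold change against mean CPM over the 6 libraries (log axis) for all 11924 tested genes (grey) and the 32 genes (coloured by arm). Grey triangles at the edges stand for 10 genes beyond 4 on the log2 scale. The 32 genes narrow towards 0 with rising level, and Prdx1, at a mean of 15.9 CPM, lies at 1.12.

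Many of these genes were among the abundant transcripts of the sorted neutrophils. Together the 32 genes took 1.25%, 1.26% and 1.28% of all gene counts in the WT libraries and 1.37%, 1.24% and 1.26% in the Il1a-/- libraries, and the groups overlapped. Of the 32 genes, 14 were in the top 5% of tested genes by CPM per kb and 27 were above the median gene. The highest were Sqstm1 (624 CPM per kb, mean of 6 libraries), Prdx5 (569 CPM per kb) and Gsr (266 CPM per kb). This order depended on the length used: per kb of the longest transcript the third was Nfe2l2 (310.1 CPM per kb), and per kb of coding sequence, a length added after the data were seen, the leading genes were Glrx (2486 CPM per kb), Sod2 (2177 CPM per kb) and Slc7a11 (1676 CPM per kb). The other end held Cat (0.26 CPM per kb), Prdx4 (0.38 CPM per kb) and Gss (0.68 CPM per kb).

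**Figure D3:**
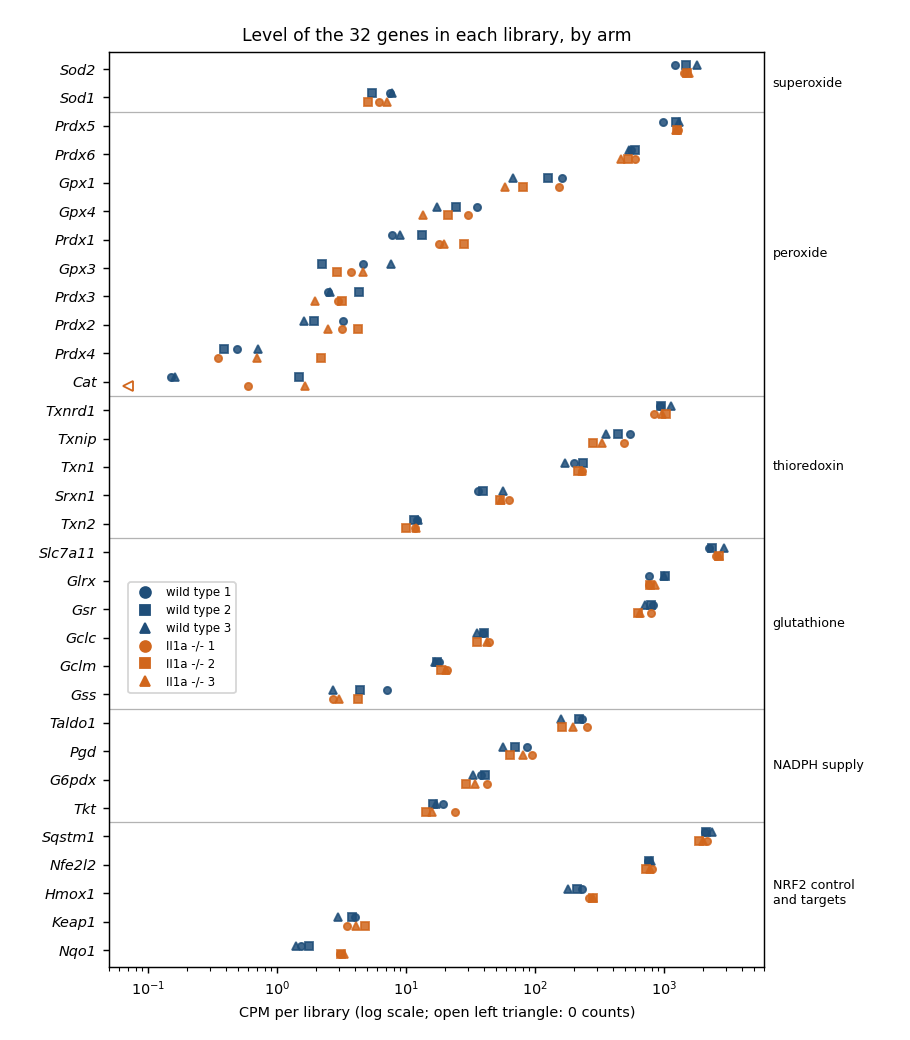
CPM of each of the 32 genes in each of the 6 libraries (log axis), WT in blue and Il1a-/- in orange, with a marker shape per replicate number. The open triangle marks a library with 0 counts. The 2 colours overlap for all but 4 genes.

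Transcripts for superoxide removal were almost wholly those of the mitochondrial manganese enzyme. Sod2 was at 1223, 1479 and 1807 CPM in WT and 1429, 1510.3 and 1551 CPM in Il1a-/- libraries. The Il1a-/- values all lay inside the WT range, and the log2 fold change was -0.0058 (SE 0.14, 95% interval -0.32 to 0.31). Sod1, the cytosolic copper and zinc enzyme, was at 5.47 to 7.72 CPM in WT and 5.06 to 7.16 CPM in Il1a-/-, with a log2 fold change of -0.18. Sod2 thus made up 98.9% of the CPM per kb of the pair. Its level per kb was 91.2 times that of Sod1 with the union of annotated exons as length, 156 times with the longest transcript, and 154 times with coding length, a measure added after the data were seen.

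Among the genes that remove peroxides, the peroxiredoxins Prdx5 and Prdx6 and the glutathione peroxidase Gpx1 held 72.7%, 14.5% and 9.55% of the CPM per kb of the 10 genes. Prdx5, a peroxiredoxin of mitochondria, peroxisomes and cytosol, was at 981, 1244 and 1303 CPM in WT and 1282, 1255 and 1242 CPM in Il1a-/- libraries. The groups overlapped, and the log2 fold change was 0.10 (SE 0.12). Prdx6, which is recharged by glutathione rather than thioredoxin, was at 561 ± 33 CPM in WT and 531 ± 68 CPM in Il1a-/- (SD, n = 3 each). Gpx1 encodes the main cytosolic glutathione peroxidase and varied strongly within each genotype, at 161, 125 and 67.7 CPM in WT and 154, 80.1 and 58.7 CPM in Il1a-/- libraries. The highest library exceeded the lowest 2.38-fold in WT and 2.62-fold in Il1a-/-, so the interval of its log2 fold change ran from -1.24 to 0.70. Gpx4, which reduces lipid hydroperoxides in membranes, spread in a similar way, from 17.3 to 35.5 CPM in WT and 13.5 to 30.1 CPM in Il1a-/-. Reads could be shared with Gpx4-ps2, a nearly identical pseudogene with 19 to 70 counts per library. The secreted enzyme gene Gpx3 was at 2.22 to 7.59 and 2.90 to 4.63 CPM.

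Prdx1, a cytosolic peroxiredoxin and NRF2 target, had the smallest unadjusted p of the 32 genes. It was at 7.82, 13.3 and 8.97 CPM in WT and 17.9, 28.0 and 19.7 CPM in Il1a-/- libraries. Every Il1a-/- library was above every WT library, and Il1a-/- replicate 2 was the highest. The log2 fold change was 1.12 (SE 0.24, 95% interval 0.58 to 1.67), with an unadjusted p of 0.00092 and an adjusted p of 0.24 in the edgeR test. Without Il1a-/- replicate 2 the log2 fold change was 0.89 with an adjusted p of 0.64, and over all 15 other settings the adjusted p ran from 5.4e-05 to 0.71. The 3 Prdx1 pseudogenes of at least 90% identity had 0 to 2 counts per library.

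The remaining peroxide genes were near the lower end of detection. Prdx2, the other cytosolic peroxiredoxin, was at 1.61 to 3.22 CPM in WT and 2.49 to 4.22 CPM in Il1a-/-. The mitochondrial Prdx3 was at 2.47 to 4.28 and 1.97 to 3.18 CPM. The secretory-pathway enzyme gene Prdx4 was at 0.39 to 0.71 CPM in WT and at 0.35, 2.19 and 0.70 CPM in Il1a-/- libraries, so its log2 fold change of 1.03 (SE 0.70) came from Il1a-/- replicate 2 and was -0.04 without it. Catalase, a peroxisomal enzyme, had 4, 46 and 5 counts in WT and 19, 0 and 38 counts in Il1a-/- libraries, and the 0 allows a level of up to 0.0924 CPM.

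Of the 5 thioredoxin genes, Txn1, Txnrd1 and Txnip were in the top 5% of tested genes by CPM per kb and Srxn1 and Txn2 were not, and none passed the test between genotypes. Txn1, cytosolic thioredoxin, was at 202, 236 and 169 CPM in WT and 232, 217 and 231 CPM in Il1a-/- libraries. The groups overlapped, with a log2 fold change of 0.17 (SE 0.13). Txnrd1, the cytosolic thioredoxin reductase, was at 1009 ± 116 CPM in WT and 949 ± 98 CPM in Il1a-/- (SD, n = 3 each). Txnip, which binds thioredoxin and blocks it, was at 447 ± 98 and 366 ± 108 CPM, and mitochondrial Txn2 was at 12.01 ± 0.43 and 11.2 ± 1.09 CPM. Srxn1 encodes sulfiredoxin, which rescues overoxidised peroxiredoxins, and was at 36.3, 39.3 and 56.1 CPM in WT and 62.3, 53.1 and 54.2 CPM in Il1a-/- libraries. WT replicate 3 lay within the Il1a-/- range, and the log2 fold change was 0.37 (SE 0.17, unadjusted p 0.062, adjusted p 0.86 in the edgeR test). The summed CPM of the 5 genes was 1732, 1678 and 1733 in WT and 1635, 1594 and 1599 in Il1a-/- libraries. These sums did not overlap, with a log2 ratio of -0.09 that was -0.03 when libraries were scaled by total counts alone. They include Txnip, the inhibitor. Means of Txnip, Txnrd1 and Txn2 were lower in Il1a-/-, as given above. Those of Txn1 (202 CPM in WT and 227 CPM in Il1a-/-) and Srxn1 (43.9 and 56.5 CPM) were higher.

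Per kb of exon or of coding sequence, Gsr, Slc7a11 and Glrx were higher than the glutathione synthesis genes Gclc, Gclm and Gss. Gsr, glutathione reductase, was at 823, 796 and 715 CPM in WT and 796, 624 and 647 CPM in Il1a-/- libraries. The groups overlapped, with a log2 fold change of -0.17 (SE 0.12). Slc7a11, the transporter subunit that brings in cystine, was at 2511 ± 379 CPM in WT and 2624 ± 78 CPM in Il1a-/- (SD, n = 3 each), and Glrx, glutaredoxin, was at 926 ± 143 and 799 ± 41 CPM. Per kb, Gsr, Slc7a11 and Glrx held 42.8%, 29.7% and 25.2% of the arm, while per kb of coding sequence Glrx led, followed by Slc7a11 and Gsr at 489 CPM per kb. The 3 synthesis genes held the small remainder. Gclc, the catalytic subunit of glutamate-cysteine ligase, was at 38.4 ± 2.5 and 40.6 ± 4.5 CPM. Gclm, its regulatory subunit and an NRF2 target, was at 18.0, 17.5 and 16.6 CPM in WT and 20.7, 18.7 and 20.4 CPM in Il1a-/- libraries. The groups did not overlap, but the log2 fold change was only 0.20 (SE 0.15) with an unadjusted p of 0.21 in the edgeR test. Gss, glutathione synthetase, was at 2.7 to 7.1 CPM in WT and 2.73 to 4.26 CPM in Il1a-/-. Its exons overlap those of genes on the other strand, and its log2 fold change of -0.51 was -0.27 when the 2 strand columns were summed.

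The 4 NADPH supply genes were all highest in Il1a-/- replicate 1, and the groups overlapped for each of them. Taldo1, transaldolase of the non-oxidative branch of the pentose phosphate pathway, held 78.3% of the CPM per kb of the 4 genes. It was at 230.3, 220.4 and 159 CPM in WT and 253, 163 and 196 CPM in Il1a-/- libraries, with a log2 fold change of 0.0037 (SE 0.18). The highest library exceeded the lowest 1.45-fold in WT and 1.55-fold in Il1a-/-, a spread wider than the difference between the genotypes. G6pdx and Pgd, the dehydrogenases that make NADPH, were at 37.3 ± 4.1 and 70.9 ± 14.7 CPM in WT and at 35.3 ± 6.9 and 79.9 ± 15.7 CPM in Il1a-/- (SD, n = 3 each). Tkt, transketolase, was at 17.5 ± 1.6 and 18.03 ± 5.06 CPM, and it is also among the 10 corneal epithelium markers given above. G6pd2, a copy of G6pdx, had 0 counts in every library.

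Genes of NRF2 control overlapped between genotypes. The 2 target genes grouped with them, Nqo1 and Hmox1, were higher in value in every Il1a-/- library. Not every target named above was: Srxn1 and Txnrd1 overlapped between genotypes, with log2 fold changes of 0.37 and -0.09. The targets named above are examples and not a full set of NRF2 targets among the 32 genes. Gclc, Gsr, Slc7a11, Txn1 and G6pdx, not named there, also overlapped between genotypes, with log2 fold changes from -0.17 to 0.17. Nfe2l2 was at 745, 769 and 786 CPM in WT and at 810, 720.2 and 775 CPM in Il1a-/-. Its log2 fold change was 0.0034 with a 95% interval of -0.22 to 0.23, the narrowest of the 32 genes. Sqstm1, an autophagy receptor that sequesters KEAP1, was at 2078, 2112 and 2362 CPM in WT and 2160.1, 1859.6 and 1998 CPM in Il1a-/- libraries, with a log2 fold change of -0.12 (SE 0.11). The 2 groups overlapped. Keap1 was at 2.99 to 4.005 CPM in WT and 3.49 to 4.78 CPM in Il1a-/-.

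Hmox1, heme oxygenase, which degrades heme and is also repressed by the NRF2 competitor BACH1, was at 232, 209.7 and 179.8 CPM in WT and 264, 280.4 and 282 CPM in Il1a-/- libraries. The groups did not overlap. The log2 fold change was 0.41 (SE 0.12, 95% interval 0.14 to 0.68), with an unadjusted p of 0.0072 and an adjusted p of 0.57 in the edgeR test. Nqo1, a quinone reductase, was at 1.53, 1.77 and 1.42 CPM in WT and 3.08, 3.11 and 3.32 CPM in Il1a-/- libraries. These values rest on 41 to 55 counts per WT library and 76 to 101 counts per Il1a-/- library. Its groups did not overlap either, and the log2 fold change was 1.01 (SE 0.31, 95% interval 0.33 to 1.69, unadjusted p 0.0079, adjusted p 0.59 in the edgeR test). Without Il1a-/- replicate 2 the log2 fold change was 0.39 for Hmox1 and 1.01 for Nqo1.

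Markers of macrophages, cells in which Hmox1 is also well expressed, were higher in value in Il1a-/- libraries too. The 20 monocyte and macrophage markers summed to 596, 642 and 616 CPM in WT and 713, 728 and 744 CPM in Il1a-/- libraries, and these sums did not overlap. Of the 20, 16 were tested, 13 had a log2 fold change above 0, 0 passed the edgeR test, the groups did not overlap for 6 higher and 2 lower, and Timd4 and Folr2 were at 0 counts in every library. Most of the sum came from Cd68, Csf1r and Adgre1, at 529, 580 and 554 CPM together in WT and 654, 606 and 639 CPM in Il1a-/- libraries. The other 17 summed to 66.5, 62.2 and 61.4 CPM in WT and to 59.6, 122 and 105 CPM in Il1a-/-. The complement genes C1qa, C1qb and C1qc, which mark tissue macrophages and were singled out after their values were seen, summed to 2.06, 2.87 and 1.70 CPM in WT and 3.80, 15.2 and 9.08 CPM in Il1a-/-. Of the 2 lower markers, also named after their values were seen, Lyve1 was at means of 2.08 CPM in WT and 0.22 CPM in Il1a-/- and Ly6c2 at 32.6 and 26.5 CPM. Il1a-/- replicate 2 was highest for the complement genes and for Prdx1, but not for Hmox1, Nqo1 or Gclm. The part of macrophage RNA in the values of these genes was not tested.

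**Figure D4:**
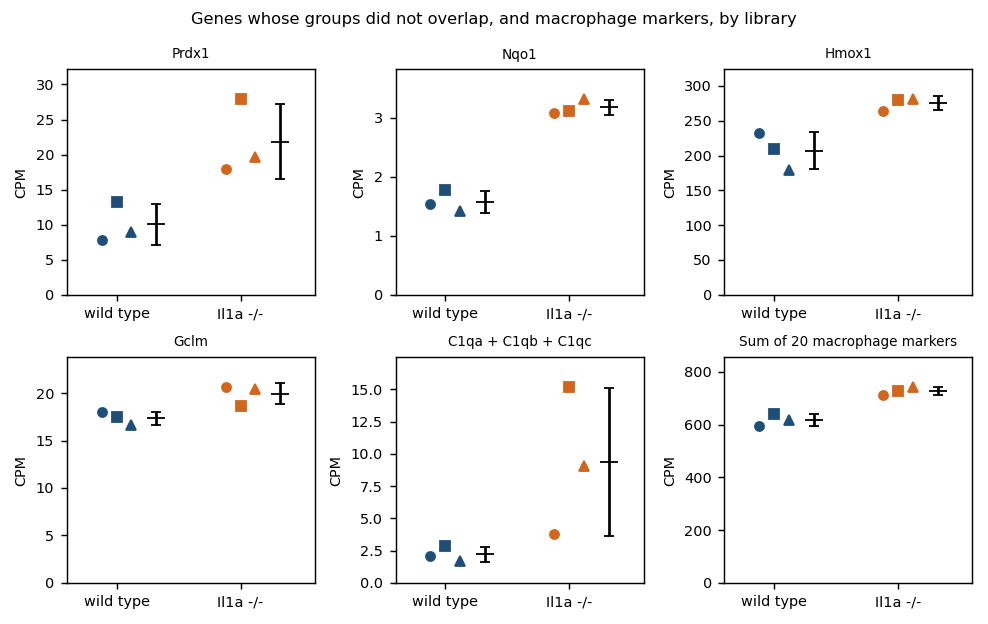
CPM per library of the 4 genes whose groups did not overlap, of the sum of C1qa, C1qb and C1qc, and of the sum of 20 macrophage markers, WT in blue and Il1a-/- in orange, with mean and SD in black (n = 3 each). In all 6 panels every Il1a-/- library lies above every WT library.

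Compared by arm, the summed CPM of the genotypes overlapped for every arm but the thioredoxin genes, whose sum includes the inhibitor Txnip. The summed CPM was 1510 ± 293 in WT and 1503 ± 62 in Il1a-/- for the superoxide arm, 1903 ± 140 and 1943 ± 144 for the peroxide arm, and 4275 ± 420 and 4176 ± 50.4 for the glutathione arm. It was 329 ± 56 and 337 ± 73 for NADPH supply and 3163 ± 147 and 3057 ± 186 for NRF2 control and targets (SD, n = 3 each). Log2 ratios of these sums lay between -0.09 for the thioredoxin arm and 0.03 for the peroxide and NADPH supply arms. Single libraries moved these ratios: that of NADPH supply was -0.15 without Il1a-/- replicate 1, -0.0986 without WT replicate 3, 0.12 without WT replicate 1 and 0.16 without Il1a-/- replicate 2, and that of the superoxide arm was -0.15 without WT replicate 1 and 0.15 without WT replicate 3. The ratio stayed below 0 with each library left out for the thioredoxin arm (-0.11 to -0.085) and for NRF2 control and targets (-0.10 to -0.012). Scaled by library size alone, the ratio was below 0 only for the thioredoxin arm and lay between 0.011 for NRF2 control and targets and 0.091 for the peroxide arm in the other 5. With a library left out, it changed sign for the glutathione arm (-0.11 without WT replicate 1, 0.041 without WT replicate 3) and for the peroxide arm (-0.043 without WT replicate 1, 0.078 without Il1a-/- replicate 3). As a share of the summed CPM per kb, NRF2 control and targets took 30.8% in WT and 30.9% in Il1a-/-, the peroxide arm 24.5% and 25.5%, the thioredoxin arm 15.7% and 15.7%, the superoxide arm 4.8% and 4.87%, and NADPH supply 3.78% and 3.84%. The glutathione arm took 20.1%, 20.4% and 20.8% in the WT libraries and 18.9%, 19.3% and 19.5% in the Il1a-/- libraries. These glutathione shares did not overlap, but with the longest transcript as length they ran from 18.6% to 19.7% in WT and from 17.8% to 18.64% in Il1a-/- and overlapped. Per kb of coding sequence the glutathione arm was instead the largest, at 35.3% in WT and 33.7% in Il1a-/-, and the superoxide arm took 15.9% and 16.3%, so the rank of the arms is not settled by these data. The arms were not tested as sums.

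**Figure D5:**
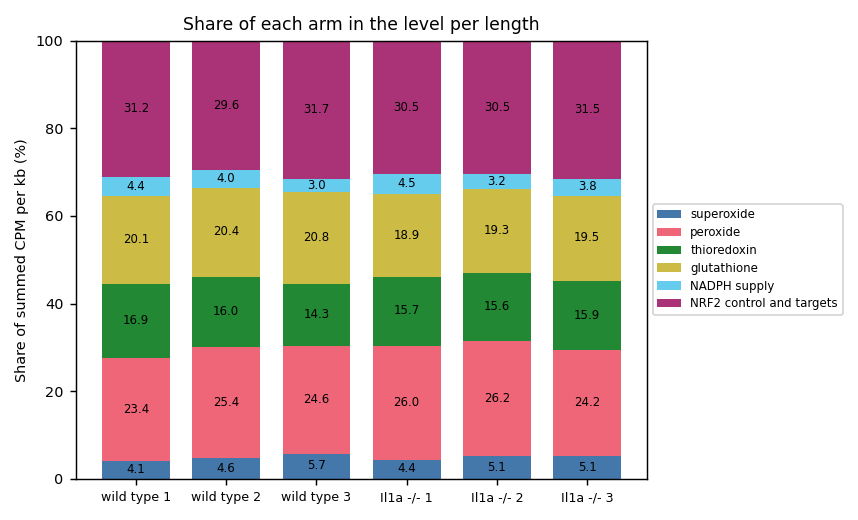
Share of each functional arm in the summed CPM per kb of the 32 genes, in percent, for each of the 6 libraries (stacked bars). NRF2 control and targets, the peroxide arm and the glutathione arm are the largest in every library on this length, and the glutathione arm is 20.1% to 20.8% in WT and 18.9% to 19.5% in Il1a-/-.

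A list of 68 other antioxidant and NRF2 pathway genes was examined beside the 32. Of these, 56 were tested and 0 passed the edgeR test, while 3 had an unadjusted p under 0.05, all higher in Il1a-/- (5.36%, beside the 5.99% of all tested genes given above). Their median log2 fold change was -0.02. The 3 were Ggct, which breaks down gamma-glutamyl peptides of glutathione, Pgls, the lactonase between G6pdx and Pgd in the pentose phosphate pathway, and Blvrb, a biliverdin reductase that acts after heme oxygenase. Ggct was at 24.0, 28.3 and 28.6 CPM in WT and 38.3, 32.8 and 36.3 CPM in Il1a-/- libraries (log2 fold change 0.41, SE 0.14). Pgls was at 1.27, 1.64 and 1.67 CPM in WT and 2.64, 3.55 and 2.23 CPM in Il1a-/- (0.87, SE 0.34). Blvrb was at 2.62, 2.38 and 4.47 CPM in WT and 4.495, 4.72 and 6.42 CPM in Il1a-/- (0.72, SE 0.32). For all 3 genes the groups did not overlap, and neither did they for Msrb3, a methionine sulfoxide reductase named after its values were seen (log2 fold change 1.04).

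In the other direction the smallest unadjusted p belonged to Mgst1, Oxr1 and Txndc12. Mgst1, a microsomal glutathione transferase, was at 54.9, 66.1 and 44.2 CPM in WT and 52.9, 38.4 and 37.0 CPM in Il1a-/- (log2 fold change -0.36, SE 0.19). Oxr1, an oxidation resistance gene, was at 22.2, 19.8 and 22.6 CPM in WT and 19.7, 17.4 and 13.3 CPM in Il1a-/- (-0.36, SE 0.18). Txndc12, a thioredoxin-like protein of the endoplasmic reticulum, was at 4.94, 5.09 and 4.60 CPM in WT and 3.87, 3.70 and 3.19 CPM in Il1a-/- (-0.44, SE 0.25). The groups overlapped for Mgst1 and not for Oxr1 and Txndc12, nor for Mafk, a small MAF partner of NRF2 named after its values were seen (-0.18). In all, groups did not overlap for 7 of the 56 genes (12.5%), 4 higher and 3 lower, beside the 11.6% of all tested genes given above.

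The most abundant genes of this list per kb were the ferritin genes Fth1 and Ftl1, which store iron, and Slc3a2, the partner chain of Slc7a11. Fth1 was at 14442 CPM per kb. It was at 45174, 52455 and 55223 CPM in WT and at 45881, 49527 and 52332 CPM in Il1a-/- libraries. Ftl1 was at 1166, 1249 and 1104 CPM in WT and 1337, 1135 and 1288 CPM in Il1a-/-. Its strand columns summed to 2.79 times the unstranded count, so the printed level leaves out many of its reads. Slc3a2 was at 464, 585 and 686 CPM in WT and 554, 538 and 612 CPM in Il1a-/-. The groups overlapped for all 3 genes.

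By position, 4 of the 32 genes share chromosome 2 with Il1a. The nearest is Srxn1, 22.8 Mb away (GRCm38 chromosome 2, 152105516 to 152111376), followed by Cat at 25.8 Mb, Gss at 26.3 Mb and Nfe2l2 at 53.6 Mb. Of the genes with non-overlapping groups, Prdx1 lies on chromosome 4 (116685544 to 116700822), Gclm on chromosome 3 (122245557 to 122270732), and Nqo1 (107388225 to 107403206) and Hmox1 (75093621 to 75100589) both on chromosome 8.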

How the data were processed

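Total RNA of the sorted neutrophils was purified with the RNeasy Micro kit and made into libraries with the SMART-seq v4 kit, per the labels' protocols. This kit keeps no strand information. Per the submitters' processing notes, the tools were STAR 2.7.8a, Trimmomatic 0.39 and FastQC 0.11.9 and the build GRCm38 (mm10). No source used here gives the annotation release. The authors deposited whole-number counts per gene, not normalized, in an unstranded column, used here, and 2 strand columns. Symbols, lengths and positions came from GENCODE M21, which held 54809 of the 54838 genes. Genes passing edgeR's default expression filter (11924) were TMM-scaled and tested by the robust quasi-likelihood method of edgeR 4.0.16 in R 4.3.3, Il1a-/- against WT, with Benjamini-Hochberg adjustment and a threshold of 0.05. With 22855676 to 33626008 counts per library, the lowest genes rest on few counts. The procedure was tested on simulated counts with 200 changed genes.

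The members, their arms and the other lists were chosen with earlier results of these data known, so they give no independent support. All 32 genes were accounted for. Values in every library were given for genes that lead their arm per kb, had an unadjusted p under 0.05 or had groups that did not overlap. Of the other pathway genes, the 3 with the smallest p in each direction and the 3 highest per kb were named, and of the macrophage markers the 3 highest. Copies were searched with blastn 2.17.0 (90% identity over at least 50% of the shorter transcript and 200 bases). Alternatives were testing by limma-voom (limma 3.58.1) or DESeq2 1.42.0, the summed strand columns, a replicate block, scaling by library size alone, upper quartiles or DESeq2 size factors, omission of the filter or a stricter one (5 CPM in 3 libraries), each library left out, and the longest transcript or, added after the data were seen, coding sequence as gene length. Figures were drawn with matplotlib 3.10.9.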

Additional observations from a re-analysis of the deposited data

How the results depend on the processing

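With 3 libraries per genotype, changes under 2-fold were often missed on simulated counts of genes at 5 CPM or more, and genes under 1 CPM such as Cat and Prdx4 have wide intervals. No uninfected or other cell group was analysed, and levels per kb depend on the transcript models. The number of genes called among all tested was 12, and it was 185 without a filter, 21 with a filter at 5 CPM, 20 with the replicate block, 69 by DESeq2, and 7 to 24 with a library left out (7 without WT replicate 1 and without WT replicate 2, 24 without Il1a-/- replicate 1). The number of the 32 genes called was 0, and 1 (Prdx1) without a filter (adjusted p 5.4e-05), with the replicate block (0.047) and by DESeq2 (0.0032). It was 0 in the 6 fits that left out a library, in which the adjusted p of Prdx1 was 0.19 to 0.71. The labels state no pairing of the replicate numbers. Correlations of the deviations of libraries with the same number were 0.14, 0.057 and 0.0034. Those of libraries with different numbers ran from -0.19 to 0.14. So few values cannot settle whether the numbers pair the samples, and the block is given as an alternative only. The median log2 fold change of the 32 genes stayed within the spread between libraries in all alternatives.

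Of 472 single-gene values under alternatives, 437 kept their direction and side of the threshold, 3 were the Prdx1 calls above and 32 changed sign, 22 of them with a library left out. Sign changes touched 15 genes, and the other 17 had none. Nfe2l2 was -0.0022 with DESeq2 size factors and by DESeq2 and -0.0061 without a filter, Sod2 was 0.060 by library size alone, 0.013 with the 5 CPM filter, 0.012 with the replicate block and 0.0084 by limma-voom, Taldo1 was -0.0029 without a filter and -0.00056 with the block, and Cat was -0.85 by limma-voom. Across the leave-one-out fits, log2 fold changes ranged from -0.998 to 2.22 for Cat, -0.77 to 0.0050 for Gpx1, -0.70 to 0.14 for Gpx3, -0.57 to 0.040 for Gpx4, -0.35 to 0.11 for Prdx3, -0.037 to 1.45 for Prdx4, -0.031 to 0.18 for Prdx5, -0.19 to 0.0061 for Prdx6, -0.16 to 0.0093 for Txnrd1, -0.029 to 0.19 for Slc7a11, -0.25 to 0.036 for G6pdx, -0.21 to 0.18 for Tkt, -0.19 to 0.13 for Taldo1, -0.044 to 0.038 for Nfe2l2 and -0.15 to 0.15 for Sod2. The log2 ratio of the thioredoxin sums was -0.034 by library size alone. With the longest transcript as length, the share of the superoxide arm was 6.18% in WT and 6.29% in Il1a-/-, of the glutathione arm 19.1% and 18.3%, of NADPH supply 4.53% and 4.63%, and in Il1a-/- that of the thioredoxin arm was 15.5% and of NRF2 control and targets 30.3%. With coding length, added after the data were seen, the shares in WT and Il1a-/- were 15.9% and 16.3% for the superoxide arm, 18.5% and 19.2% for the peroxide arm, 12.2% and 12.5% for the thioredoxin arm, 35.3% and 33.7% for the glutathione arm, 1.91% and 1.97% for NADPH supply and 16.27% and 16.3% for NRF2 control and targets. Apart from the change of length or sample number, the cause of these shifts was not tested.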

Other observations

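The spread of these genes between libraries was not even, but the counts below were not made over all tested genes. They are therefore not shown to be particular to the 32 genes. Of the 32 genes, 9 were highest in Il1a-/- replicate 1 and 8 in WT replicate 3, while 10 were lowest in Il1a-/- replicate 2 and 9 in WT replicate 3. Gpx1, Gpx4, Txnip, Gsr, Gclm, Pgd, Tkt and Taldo1, 8 of the 32 genes, were highest in replicate 1 of both genotypes. This was noticed after the values were seen, and whether the replicate numbers pair the samples is not known.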
